A study of Mus musculus with 4 samples.

Results

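Isg15 and the 4 enzyme genes that attach it to proteins or remove it, Uba7, Ube2l6, Herc6 and Usp18, were followed in single CD45+ cells of mouse melanomas. The 5 genes were chosen by name, and all 5 were among the 12584 genes of the deposited count table. YUMM1.7 OVA RTT cells, a BRAF-inhibitor-resistant mouse melanoma line that carries Braf V600E, lacks Cdkn2a and expresses ovalbumin, were grown in Rag2-/- mice, which have no T or B cells of their own but keep NK and myeloid cells. All mice received OT-1 CD8+ T cells on day 7 (adoptive T cell transfer, ACT), and live CD45+ cells were sorted on day 10, 72 h later. CTRL tumours carried an empty mCherry vector with a puromycin cassette. IRF3/7 tumours were made from a bulk-sorted line in which an SFFV promoter drives Irf3 and Irf7 in the cancer cells, COX2i tumours were mCherry tumours in mice given celecoxib, and COX2i + 5-AZA mice received celecoxib and the DNA methyltransferase inhibitor 5-azacytidine. There was 1 library per group, made from 3 pooled tumours, so no test between conditions was possible and every difference below is one between 2 libraries.

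ISG15 is a small ubiquitin-like protein that interferon induces strongly. UBA7 activates it (the E1 step), UBE2L6 carries it (E2), and HERC6, the main ligase in mouse cells, attaches it to newly made proteins, a process called ISGylation. USP18 removes ISG15 from its targets and, apart from that activity, binds the type I interferon receptor and restrains its signalling. In myeloid cells these genes are part of the interferon response to viruses and to type I interferon in tumours.

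By the GENCODE M21 annotation (GRCm38), Isg15 (ENSMUSG00000035692) lies on chromosome 4 from 156199424 to 156200818 on the minus strand. Uba7 (ENSMUSG00000032596) lies on chromosome 9 from 107975505 to 107984060, Ube2l6 (ENSMUSG00000027078) on chromosome 2 from 84798828 to 84810335, Herc6 (ENSMUSG00000029798) on chromosome 6 from 57581000 to 57664632, and Usp18 (ENSMUSG00000030107) on chromosome 6 from 121245906 to 121270917, all on the plus strand. Upstream sequence was taken from RefSeq (GRCm38.p6) for 4 of the 5 genes, and the 250 bases before each start were searched on both strands. The motifs were the core of the interferon-stimulated response element (ISRE), read as GAAA, any 2 bases and GAAA again, AANNGAAA, the shorter core bound by interferon regulatory factors (every ISRE core match also holds it), and TTCNNNGAA, the core of the interferon-γ-activated site. Of all 32851 promoters in the RefSeq set, 2.98% held the ISRE core, 21.3% AANNGAAA and 7.02% TTCNNNGAA in these 250 bases. Isg15 was the only one of the 4 to hold the ISRE core, with 3 overlapping matches that start 78, 72 and 66 bases before the gene. Uba7 held 1 match of AANNGAAA on the opposite strand, 27 bases before the RefSeq start of the gene, which lies downstream of the GENCODE start given above. Isg15 held AANNGAAA within each ISRE core and once more on the opposite strand, 128 bases before the gene. None of the 3 motifs was found in this window of Ube2l6 or Herc6, and TTCNNNGAA was found in none of the 4 windows. The Isg15 and Uba7 stretches are shown because they hold the ISRE cores of Isg15 and the Uba7 match, which stand in capitals. The Isg15 match 128 bases before the gene lies outside the stretch. The first is the 120 bases before Isg15 (chr4:156200819-156200938, minus strand) and the second is 30 bases around the Uba7 match (chr9:107975530-107975559, plus strand).
Isg15: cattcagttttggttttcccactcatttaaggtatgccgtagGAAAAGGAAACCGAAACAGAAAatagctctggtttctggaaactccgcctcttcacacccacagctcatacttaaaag
Uba7: ctcagtctagTTTCACTTttggtttcctga

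The libraries held between 6329 and 10032 cells and between 26356819 and 78722763 unique molecular identifiers (UMIs), with IRF3/7 the shallowest at a median of 3168 UMIs per cell against 6039.5 to 7502 in the others. Expression is given as CPM, the UMIs of a gene divided by all UMIs of the cells considered and scaled to 1000000. Values in parentheses are exact 95% intervals, which cover counting error only and not the spread between tumours. In this probe assay genes are read by different probes, so levels were not compared between genes. Each cell's class is the one its submitters assigned. The marker lists for cDC1, cDC2, CCR7+ DC (the class named DC3), NK cells, T cells, neutrophils, mast cells and fibroblasts were each highest in the class of that name, the macrophage list in TAM_C1q and the monocyte list in Infl_Mono, the inflammatory monocytes. Cell types with no class of their own had no such check. The endothelial list was highest in Monocyte_3 (458 CPM) and NK cells (250 CPM), the list for plasmacytoid dendritic cells in cDC2 (26.1 CPM), and the 2 measured melanoma markers in mast cells (272 CPM) and Ctsk_Macro (164 CPM), so these genes do not by themselves mark the cells they are named for here. Monocytes (Infl_Mono, Monocyte_1 and Monocyte_3) and macrophages (the TAM classes, Ctsk_Macro and Macro) were summed for the comparisons, giving 5035 to 8801 cells per library. These classes came from clustering on variable genes, which may include the 5 genes, so a gene's level in a class is a description.

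In monocytes and macrophages the 5 genes were all lowest in CTRL, next in COX2i, then in COX2i + 5-AZA, and highest in IRF3/7. Isg15 stood at 75.6 CPM (73.3 to 77.9) in CTRL, 136 (133 to 139) in COX2i, 626 (620 to 632) in COX2i + 5-AZA and 5007 (4974 to 5040) in IRF3/7. Among the conjugating enzymes, Uba7 stood at 24.0, 29.3, 52.1 and 152 CPM in the same order of libraries, and Ube2l6 at 43.2, 58.7, 120 and 416. The ligase Herc6 stood at 26.3, 37.0, 86.8 and 338 CPM. Usp18, which opposes them, stood at 14.7, 26.7, 72.5 and 694 CPM. For each gene no interval of one library overlapped that of another. Irf3 was at 42.6 to 44.6 CPM in these cells in all 4 libraries, whereas Irf7, itself an interferon-induced gene, was at 69.3, 92.8, 455 and 3170 CPM in the order used above.

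**Figure D1:**
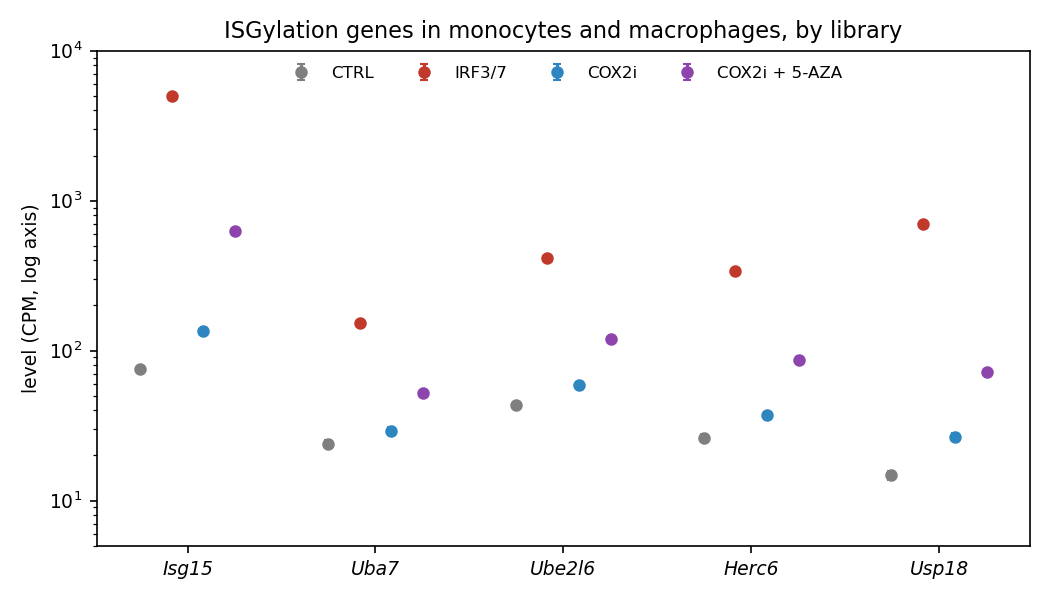
Level (CPM, log axis) of each gene in monocytes and macrophages, 1 point per library with its exact Poisson 95% interval, which is mostly smaller than the point. The order CTRL, COX2i, COX2i + 5-AZA, IRF3/7 is the same for the 5 genes, and Isg15 and Usp18 span the widest range, from 75.6 to 5007 and from 14.7 to 694 CPM.

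Forced Irf3 and Irf7 expression in the cancer cells was compared with the control vector to ask how tumour immune cells differ when the cancer cells' own interferon pathway is switched on. In monocytes and macrophages, Isg15 was 66.2-fold higher in IRF3/7 than in CTRL, a log2 ratio of 6.05 (6.00 to 6.09). Usp18 was 47.3-fold higher (5.56, 5.46 to 5.67). The conjugating enzymes differed less, with Herc6 at 3.68 (3.60 to 3.77), Ube2l6 at 3.27 (3.20 to 3.34) and Uba7 at 2.66 (2.57 to 2.76). The median of the 5 was 3.68, beside a median of −0.55 over the 11793 genes with at least 20 UMIs. All 5 had a log2 ratio of 1 or more, as did 9.16% of all genes, and none was at −1 or less, where 32.2% of all genes lay. Each gap between neighbours in this order exceeded counting error, from 0.41 (0.31 to 0.52) between Herc6 and Ube2l6 to 1.88 (1.75 to 2.01) between Usp18 and Herc6. In these summed cells the ratio of the removing enzyme was nearer to that of Isg15 than those of the E1, E2 and ligase were.

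The class mix differed between these libraries. Infl_Mono made up 68.5% of all IRF3/7 cells and 1.04% of all CTRL cells, while TAM_C1q made up 35.7% of CTRL cells and had 7 cells in IRF3/7. Within Infl_Mono, the only monocyte or macrophage class with at least 50 cells in both, Isg15 was at 5545 CPM in IRF3/7 and 2071 in CTRL, a log2 ratio of 1.42 (1.33 to 1.51). The other ratios in that class were 1.01 (0.55 to 1.52) for Uba7, 0.68 (0.49 to 0.88) for Usp18, 0.61 (0.37 to 0.87) for Ube2l6 and 0.36 (0.11 to 0.62) for Herc6, so the median was 0.68 instead of 3.68. Here Uba7 was nearest to Isg15, with a gap of −0.41 (−0.88 to 0.07), against −0.74 (−0.95 to −0.53) for Usp18. Uba7 rested on 38 UMIs in CTRL and its interval holds the Usp18 gap, so counting error leaves this order unsettled. The 93 CTRL cells of that name carried the 7 macrophage markers at a summed 51908 CPM and the 4 monocyte markers at 4804 CPM, against 9940 and 12704 CPM in the 4335 IRF3/7 cells, and none of the 11 was at 0 in either library. The part of this difference in the ratios was not tested. In these summed profiles, more cells of an interferon-responding class and more RNA per cell cannot be told apart.

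In cDC2, a conventional dendritic cell class with 645 CTRL and 390 IRF3/7 cells, the differences were large within the class. Isg15 was at 141 CPM in CTRL and 4717 in IRF3/7, a log2 ratio of 5.07 (4.92 to 5.22). Usp18 was at 50.3 and 918 CPM (4.19, 3.94 to 4.45). Ube2l6 followed at 3.46 (3.17 to 3.76), Herc6 at 2.85 (2.57 to 3.14) and Uba7 at 2.26 (1.96 to 2.57), beside a median of −0.29 over all genes in these cells. The 4 cDC2 markers summed to 1631 CPM in CTRL and 1587 in IRF3/7 with none at 0. The 4 cDC1 markers summed to 682 and 175 CPM and the 4 monocyte markers to 1243 and 7793 CPM, also with none at 0. The 2 markers of plasmacytoid dendritic cells summed to 3.23 and 109 CPM and the 3 endothelial markers to 27.6 and 286 CPM, again none at 0. Fcgr1, a myeloid Fc receptor, was at 250 and 1327 CPM. The part of these markers in the ratios was not tested.

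The Myofibrobl class, non-immune cells that passed the CD45 sort, gave greater differences than Infl_Mono and cDC2 for 4 of the 5 genes. The exception was Ube2l6, at 25.8 and 202 CPM (2.96, 2.76 to 3.17), which differed more in cDC2. Isg15 was at 15.2 CPM in 554 CTRL cells and 1601 in 172 IRF3/7 cells, a log2 ratio of 6.72 (6.49 to 6.97). Usp18 was at 1.97 CPM (19 UMIs) and 396 CPM, a ratio of 7.65 (7.00 to 8.38), which exceeded that of Isg15 by 0.92 (0.23 to 1.62). Irf7 was at 8.20 and 14909 CPM and Irf3 at 31.2 and 584 CPM in the same cells. The 4 fibroblast markers summed to 11203 CPM in CTRL and 8521 in IRF3/7, the 7 macrophage markers to 2719 and 281 CPM and the 4 monocyte markers to 85.7 and 299 CPM, none at 0, and their part in the ratios was not tested. Endogenous and vector-borne Irf7 transcripts cannot be told apart in these counts, nor can host cells and cancer cells in this class.

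COX2 inhibition alone gave small differences in the summed monocytes and macrophages and larger ones in some single classes. In monocytes and macrophages, Usp18 was 1.82-fold higher in COX2i than in CTRL (log2 ratio 0.86, 0.74 to 0.98) and Isg15 1.79-fold (0.84, 0.79 to 0.90), and the gap between them of 0.02 (−0.12 to 0.15) lay within counting error. Herc6 was at 0.49 (0.40 to 0.59), Ube2l6 at 0.44 (0.37 to 0.52) and Uba7 at 0.29 (0.19 to 0.39). The median was 0.49, beside 0.01 over all genes, and none of the 5 had a log2 ratio of 1 or more (1.93% of all genes) or of −1 or less (4.70%). The 5 monocyte and macrophage classes held by both libraries did not move alike. In Ctsk_Macro, with 380 CTRL and 157 COX2i cells, Isg15 was at 20.5 and 195 CPM (3.25, 2.89 to 3.63) and the others followed at 2.63 for Usp18, 1.89 for Ube2l6, 1.87 for Herc6 and 1.7 for Uba7. The 7 macrophage markers in these cells summed to 28087 CPM in CTRL and 9979 in COX2i, none at 0, and their part in the ratios was not tested. In TAM_C1q Isg15 was at 49.7 and 70.8 CPM (0.51, 0.39 to 0.63) and Herc6 at 23.1 and 24.0 CPM (0.05, −0.14 to 0.24). In TAM_cycling Usp18 was at 9.20 and 19.0 CPM (1.04, 0.78 to 1.31). In Myofibrobl, with 554 CTRL and 913 COX2i cells, Isg15 was at 15.2 and 62.6 CPM (2.05, 1.79 to 2.31). Usp18 there, on 19 UMIs in CTRL, was at 2.21 (1.50 to 3.00), Uba7 at 1.68, Herc6 at 1.22 and Ube2l6 at 0.06 (−0.18 to 0.31). The 4 fibroblast markers in these cells summed to 11203 and 19529 CPM, none at 0, and their part in the ratios was not tested.

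Adding 5-azacytidine asked what the methyltransferase inhibitor changes on top of COX2 inhibition. In monocytes and macrophages, Isg15 was 4.62-fold higher in COX2i + 5-AZA than in COX2i (log2 ratio 2.21, 2.17 to 2.24), Usp18 2.72-fold (1.44, 1.36 to 1.52), Herc6 2.35-fold (1.23, 1.16 to 1.30), Ube2l6 2.04-fold (1.03, 0.97 to 1.09) and Uba7 1.78-fold (0.83, 0.75 to 0.91). The median was 1.23, beside −0.19 over all genes. A log2 ratio of 1 or more was found for 4 of the 5 (6.16% of all genes), and none was at −1 or less (9.77%). Here Isg15 led Usp18 by 0.76 (0.68 to 0.85).

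Monocyte_1 cells made up 36.3% of all COX2i + 5-AZA cells and 4.31% of COX2i cells, and held 40.7% of all Isg15 UMIs of the former library. Within Monocyte_1 itself Isg15 was at 867 CPM in COX2i and 902 in COX2i + 5-AZA (0.06, −0.02 to 0.14), and Usp18 was lower, at 125 against 75.3 CPM (−0.73, −0.94 to −0.51). The neutrophil markers there summed to 157 and 572 CPM, the endothelial markers to 41.3 and 123 CPM and the fibroblast markers to 307 and 93.2 CPM, none at 0. Infl_Mono showed a like pair of values, with Isg15 at 2535 and 2642 CPM (0.06, −0.02 to 0.14) and Usp18 at 563 and 377 CPM (−0.58, −0.75 to −0.41). In Infl_Mono the 7 macrophage markers summed to 17937 CPM in COX2i and 7106 in COX2i + 5-AZA, none at 0, and the 4 neutrophil markers to 362 (1 at 0) and 4911 CPM (none at 0). Their part in these ratios was not tested. Macrophage classes differed from these and from each other. In TAM_cycling Isg15 was at 79.1 and 327 CPM (2.05, 1.98 to 2.11) and Usp18 at 19.0 and 53.9 CPM (1.51, 1.36 to 1.65), while in TAM_C1q Isg15 was at 70.8 and 146 CPM (1.04, 0.93 to 1.14) and Usp18 at 13.6 and 15.9 CPM (0.23, −0.05 to 0.50). In TAM_Spp1 Isg15 was at 100 and 166 CPM (0.73, 0.58 to 0.88) and Usp18 at 12.4 and 8.54 CPM (−0.54, −1.11 to 0.00), with Ube2l6 at 0.05 (−0.19 to 0.28), Herc6 at 0.19 (−0.14 to 0.51) and Uba7 at 0.33 (−0.03 to 0.68). Marker sums differed in these macrophage classes too. In TAM_cycling the neutrophil markers summed to 30.0 and 94.7 CPM, the endothelial markers to 13.7 and 34.0 and the fibroblast markers to 329 and 106. The NK markers summed to 2.32 and 19.9 CPM in TAM_C1q, and the neutrophil markers to 75.4 and 357 CPM in TAM_Spp1. The part of these markers in the ratios was not tested. With the 5 monocyte and macrophage classes held by both libraries weighted equally, the median of the 5 genes was 0.04 instead of 1.23. The direction then turned for Usp18 and Herc6. That weighting averages CPM, so the classes with the highest levels, here Infl_Mono and Monocyte_1, weigh most in it. The mean of the log2 ratios within the 5 classes, an alternative chosen after seeing the data, gave a median of 0.22, with Isg15 at 0.79 and Usp18 at −0.02.

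Against CTRL, COX2i + 5-AZA had Isg15 8.28-fold higher in monocytes and macrophages (log2 ratio 3.05, 3.00 to 3.10), Usp18 at 2.30 (2.20 to 2.41), Herc6 at 1.72 (1.64 to 1.81), Ube2l6 at 1.47 (1.41 to 1.54) and Uba7 at 1.12 (1.03 to 1.21). All 5 had a log2 ratio of 1 or more (5.65% of all genes), none of −1 or less (11.3%), and the median of 1.72 stood beside −0.16 over all genes. Weighting the 5 shared classes equally gave a median of 0.39, and the mean of the log2 ratios within them one of 0.78. Under the equal weighting the direction turned for Usp18. Within these classes its log2 ratio ran from −0.37 (−0.91 to 0.15) in TAM_Spp1 to 2.55 (2.30 to 2.81) in TAM_cycling. Neutrophils, short-lived granulocytes, gave a large difference within their class, with Isg15 at 314 CPM in 65 CTRL cells and 2071 in 196 COX2i + 5-AZA cells (2.72, 2.42 to 3.03). Usp18 there rested on 3 UMIs in CTRL, at 9.72 CPM (2.00 to 28.4), and stood at 168 CPM (139 to 201) in COX2i + 5-AZA, a log2 ratio of 4.11 (2.53 to 6.41). The 4 neutrophil markers summed to 24460 CPM in the CTRL cells and 89640 in the COX2i + 5-AZA cells, and the 7 macrophage markers to 35755 and 5171 CPM, with none of the 11 at 0 in either. Their part in these ratios was not tested.

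COX2i + 5-AZA and IRF3/7, the 2 libraries with the highest levels, were also set against each other. Usp18 was lower in COX2i + 5-AZA by a log2 ratio of −3.26 (−3.31 to −3.21) and Isg15 by −3.00 (−3.02 to −2.98), against −1.96 for Herc6, −1.80 for Ube2l6 and −1.54 for Uba7. All 5 were at −1 or less (6.63% of all genes), none was at 1 or more (20.8%), and the median was −1.96 beside 0.33 over all genes. The 3 shared classes, weighted equally, gave a median of −0.89, and the mean of the log2 ratios within them one of −0.94. Within Infl_Mono Isg15 differed by −1.07 (−1.10 to −1.04) and Usp18 by −1.03 (−1.11 to −0.95), and the gap between them of 0.04 (−0.04 to 0.12) was within counting error. Herc6 (−0.51, −0.61 to −0.42), Uba7 (−0.56) and Ube2l6 (−0.60) differed less in the same cells. The 4 neutrophil markers in these cells summed to 1389 CPM in IRF3/7 and 4911 in COX2i + 5-AZA. The 7 macrophage markers summed to 9940 and 7106 CPM, none of either list at 0. The part of these markers in the ratios was not tested. The comparisons share libraries, CTRL in 3 of them and COX2i + 5-AZA in 3, and so are not independent of each other.

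**Figure D2:**
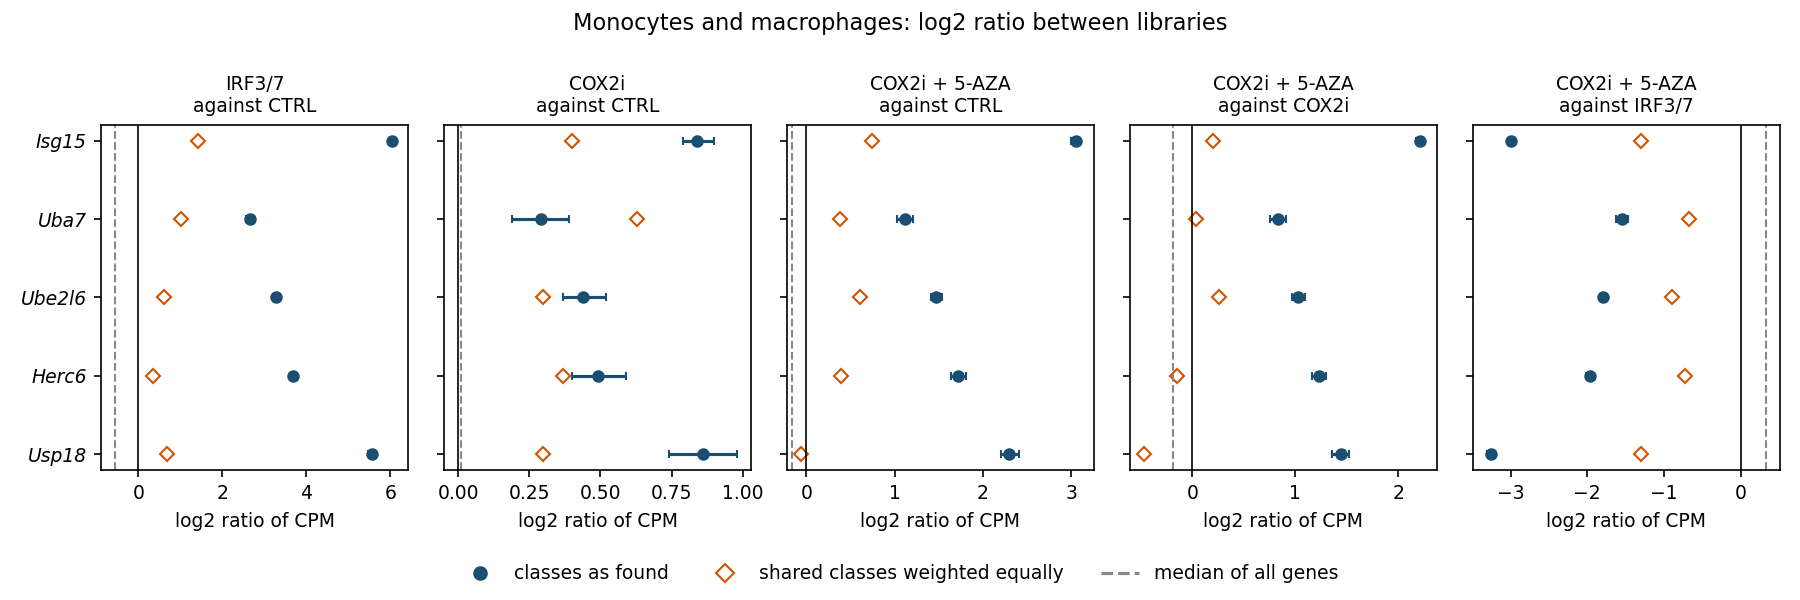
Log2 ratio of CPM between 2 libraries for each gene in monocytes and macrophages. Filled points with exact 95% counting intervals use the classes as found in each library, open diamonds use the mean CPM of the classes held by both libraries, each class counted once, and the dashed line is the median of all genes with at least 20 UMIs. For IRF3/7 against CTRL the median of the 5 filled points was 3.68 and that of the diamonds, which there rest on Infl_Mono alone, was 0.68. The x axes differ between panels.

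Across classes with at least 50 cells in the library, Infl_Mono was highest for each of the 5 genes in CTRL and COX2i, although for Uba7 in CTRL its interval overlapped that of Macro. In CTRL, Isg15 stood at 2071 CPM in Infl_Mono, 314 in neutrophils, 141 in cDC2, 123 in Macro, 76.4 in TAM_Spp1, 49.7 in TAM_C1q, 46.7 in TAM_cycling, 20.5 in Ctsk_Macro and 15.2 in Myofibrobl. The intervals of cDC2 and Macro overlapped, as did those of TAM_C1q and TAM_cycling and those of Ctsk_Macro and Myofibrobl. In IRF3/7 the lead was shared. Isg15 was at 5545 CPM in Infl_Mono and 5261 in CCR7+ DC, whose intervals overlapped, and at 4717 in cDC2. Monocyte_1 (2618) and TAM_H2Ab1 (2513), which also overlapped, came next, before Myofibrobl (1601) and NK cells (1157). Usp18 and Uba7 were highest there in cDC2, at 918 and 220 CPM, and Ube2l6 and Herc6 in CCR7+ DC, a mature migratory dendritic cell class, at 793 and 457 CPM. In COX2i + 5-AZA, neutrophils came second for Isg15, at 2071 CPM against 2642 in Infl_Mono.

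**Figure D3:**
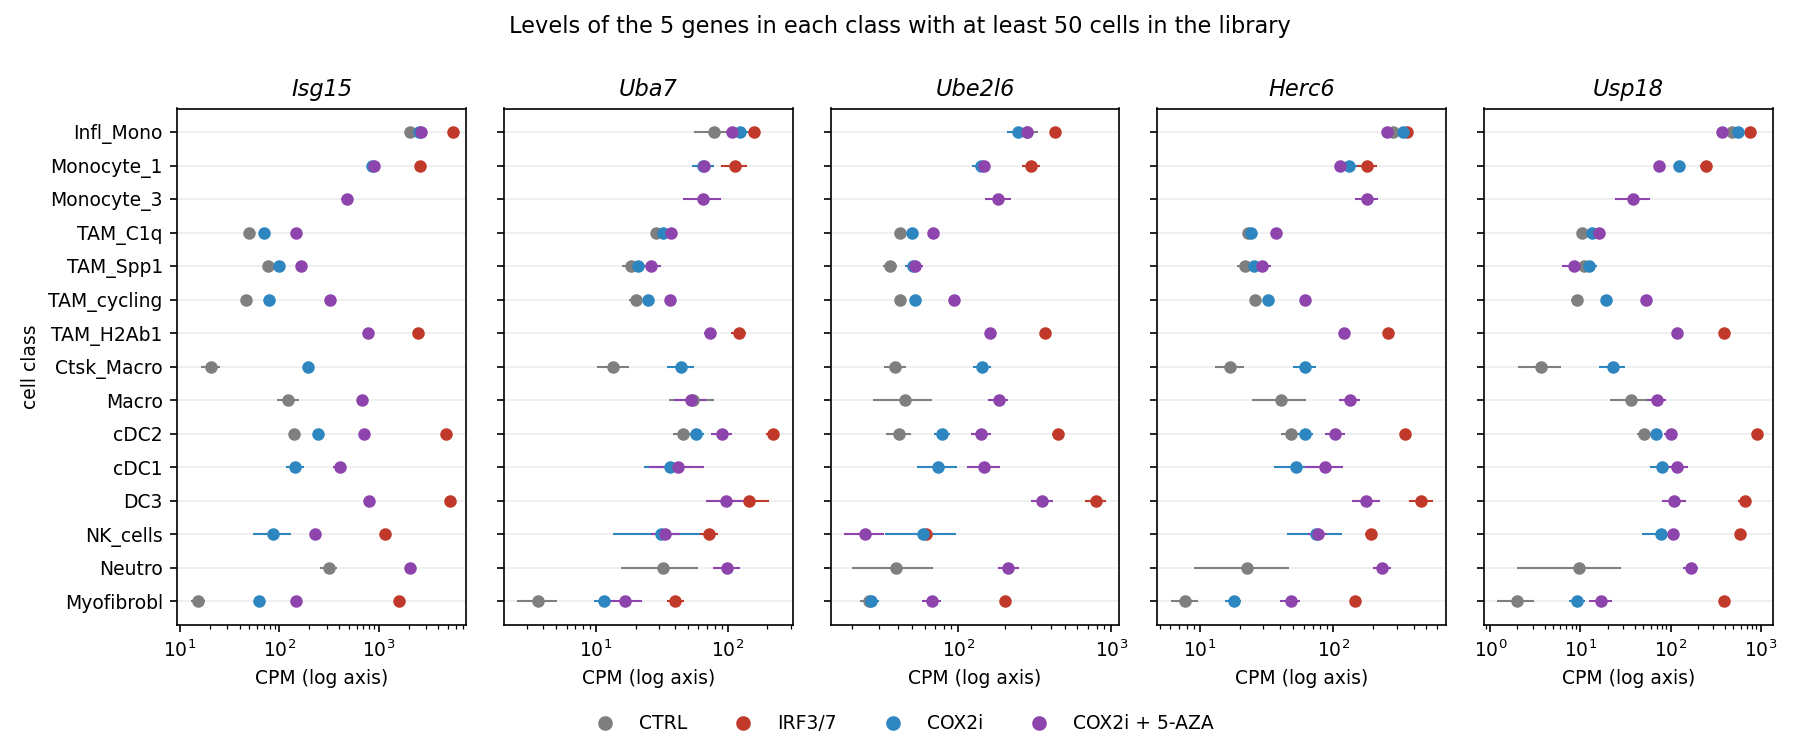
Level (CPM, log axis) of each gene in each cell class with at least 50 cells in a library, with exact Poisson 95% intervals and 1 colour per library. IRF3/7 points lie to the right of the other libraries in each class they share, for example at 4717 against 141 CPM of Isg15 in cDC2, and of the 3 classes held by all 4 libraries the points lie closest together in Infl_Mono.

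In NK cells the 5 genes stood at different shares of their level in Infl_Mono of the same library. In 568 IRF3/7 NK cells Usp18 was at 587 CPM (554 to 621), which was 76.3% (71.8 to 81.0) of its level in Infl_Mono. Herc6 was at 53.2% (47.9 to 59.0), Uba7 at 45.5% (38.2 to 53.8), Isg15 at 20.9% (20.0 to 21.7) and Ube2l6 at 14.4% (11.9 to 17.2). Myeloid markers were also read in these NK cells. The 7 macrophage markers stood at 9.91% to 16.1% each and 11.6% summed, and among the monocyte markers Fcgr1, which NK cells should lack, stood at 10.8% (9.83 to 11.8), Plac8 at 42.5% and Ccr2 at 121%, with the list at 49.5% summed. NK cells can express Plac8 and Ccr2 themselves. Ube2l6 thus lay within the range of the macrophage markers, and the other 4 genes above it. In 437 COX2i + 5-AZA NK cells Uba7 was at 31.4% (23.8 to 41.0), Herc6 at 30.5% (25.4 to 36.3), Usp18 at 28.4% (24.4 to 32.9), Isg15 at 8.70% (7.89 to 9.58) and Ube2l6 at 8.59% (6.25 to 11.5). There the macrophage markers stood at 30.7% to 75.2% each, and the monocyte list at 36.1% summed with Fcgr1 at 17.0%, so the values of the 5 genes were below both summed lists, although the interval of Uba7 and that of Herc6 reached past the monocyte list, and 3 of the 5 were above Fcgr1. In 50 COX2i NK cells Isg15 was at 3.40% (2.13 to 5.17), Fcgr1 at 3.83% (2.22 to 6.16), the macrophage markers at 3.39% to 18.9% each, and the other 4 genes at 13.9% to 25.5% with wide intervals. The part of free RNA in the NK values was not tested. CTRL had 11 NK cells and gives no value.

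**Figure D4:**
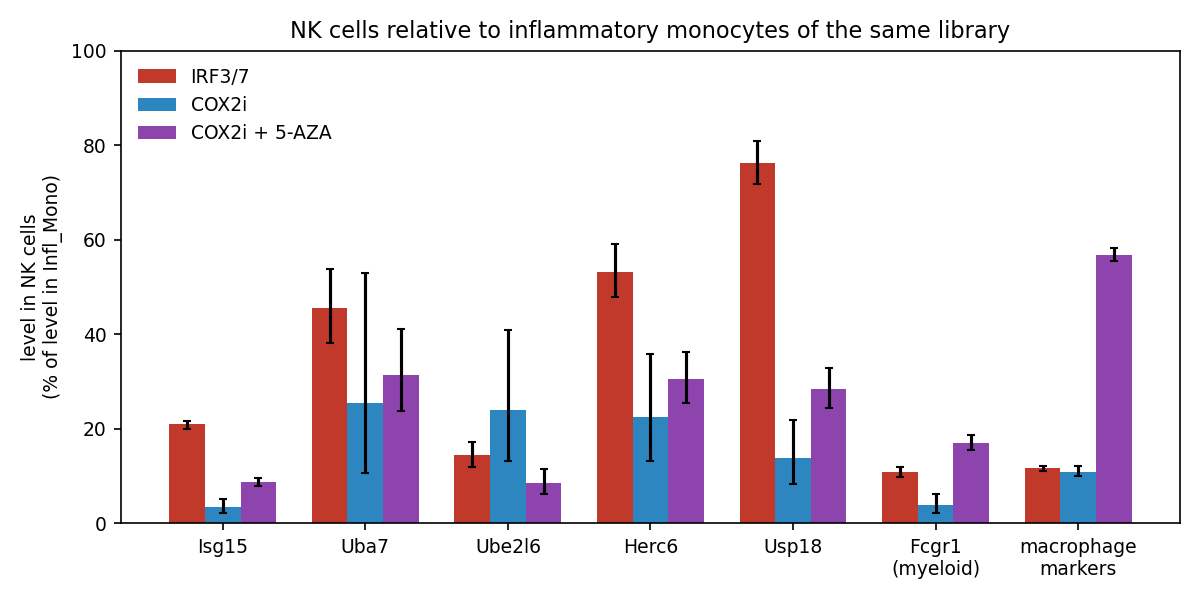
Level of each gene in NK cells as a percentage of its level in Infl_Mono of the same library, beside Fcgr1 and the sum of 7 macrophage markers, with counting intervals as error bars. Usp18 reaches 76.3% in IRF3/7, where the macrophage markers stand at 11.6%, whereas in COX2i + 5-AZA the macrophage markers stand at 56.8%, above the 5 genes.

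The differences were also seen in how many cells carried a UMI. Because depth differed, each cell was thinned to 2000 UMIs and shallower cells were left out, 212 monocytes and macrophages in CTRL, 975 in IRF3/7, 187 in COX2i and 492 in COX2i + 5-AZA. The expected share of the remaining cells with an Isg15 UMI was 9.09% in CTRL, 15.1% in COX2i, 47.9% in COX2i + 5-AZA and 97.1% in IRF3/7 (unthinned 20.0%, 32.6%, 70.2% and 97.9%). For Usp18 the shares were 2.46%, 4.44%, 10.8% and 62.4% (unthinned 5.91%, 11.0%, 22.5% and 70.6%). Uba7 was found in 24.7%, Herc6 in 43.6% and Ube2l6 in 52.1% of IRF3/7 cells and in 4.68%, 4.98% and 7.90% of CTRL cells. For comparison, in IRF3/7 NK cells, with a median of 2674.5 UMIs against 3148 in monocytes and macrophages, the thinned share was 8.58% for Ube2l6 (unthinned 12.9%), the gene nearest to Fcgr1 there. Within Infl_Mono the thinned share with an Isg15 UMI was 72.3% in CTRL, 87.4% in COX2i, 85.1% in COX2i + 5-AZA and 98.0% in IRF3/7, and 24.7% of the CTRL cells of that class had no Isg15 UMI before thinning.

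**Figure D5:**
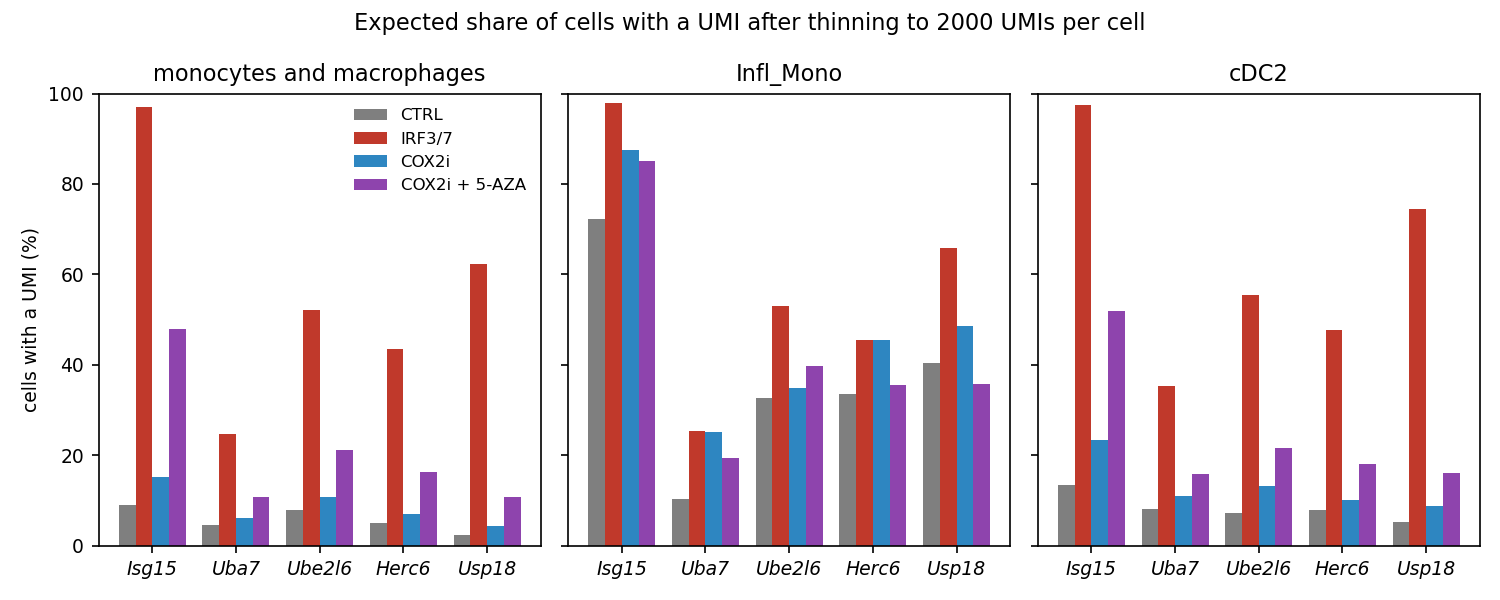
Expected percentage of cells with a UMI of each gene after thinning every cell to 2000 UMIs, in monocytes and macrophages, in Infl_Mono and in cDC2, with 1 bar colour per library. In monocytes and macrophages Isg15 runs from 9.09% in CTRL to 97.1% in IRF3/7, and in Infl_Mono the range is narrower, from 72.3% to 98.0%.

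Other genes of the pathway were described as lists in monocytes and macrophages. Of 10 other genes for ISG15 ligation and binding, 2 had a log2 ratio of 1 or more in IRF3/7 against CTRL, the ligase Trim25 (179 and 689 CPM in CTRL and IRF3/7, 1.94) and Itgal, a chain of the integrin LFA-1 that binds free ISG15 (83.6 and 204 CPM, 1.28). Ube2e2 (−2.37) and the ubiquitin-binding deacetylase Hdac6 (−1.41) were at −1 or less, and the median was 0.28. Over all genes 9.16% were at 1 or more and 32.2% at −1 or less. Trim25 was at 171 CPM in COX2i, below CTRL, and at 211 in COX2i + 5-AZA, above CTRL. It thus differed in direction from the 5 genes, which were all above CTRL in both, only in COX2i. Of 7 genes of the signalling that Usp18 restrains, 3 were at 1 or more in IRF3/7 against CTRL (9.16% of all genes), among them the transcription factors Stat2 (3.65) and Irf9 (1.34), and none was at −1 or less. The receptor chains Ifnar1 (−0.56) and Ifnar2 (0.03) and the kinase Jak1 (−0.36) were not.

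Of 7 measured ISGylation targets, 5 were at 1 or more in that comparison (9.16% of all genes), with a median of 2.49, among them Ddx58, the RNA sensor RIG-I (3.03), and Parp12 (2.49). Ube2n was at −0.11. The 23 relatives of the enzymes that serve other ubiquitin-like proteins and had enough UMIs had a median of −0.47, close to the −0.55 of all genes. Usp25 (1.37) alone was at 1 or more (9.16% of all genes) and 4 were at −1 or less (32.2% of all genes). Ube2l3, the closest relative of Ube2l6, was at 91.9 CPM in CTRL and 98.7 in IRF3/7 (0.10, 0.02 to 0.18). Uba1, the E1 of ubiquitin, was at 402 and 288 CPM (−0.48).

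A list skewed to type I interferon (8 genes measured, Irf7 among them) and one skewed to interferon-γ (10 genes) were set beside the 5 genes. In IRF3/7 against CTRL all 8 and all 10 were at 1 or more (9.16% of all genes), with medians of 5.55 and 4.56. In COX2i against CTRL none of the 8 and all 10 were (1.93% of all genes), with medians of 0.35 and 1.7. The median of the 5 ISGylation genes was 0.49. In COX2i + 5-AZA against CTRL the medians were 2.14 and 4.18, and that of the ISGylation genes was 1.72. In COX2i + 5-AZA against IRF3/7 the type I list was at −3.20, with all 8 at −1 or less (6.63% of all genes), and the interferon-γ list at −0.32, with 2 of 10 at −1 or less and 1, Cxcl9 (1.16), at 1 or more (20.8% of all genes). The median of the 5 ISGylation genes lay between them, at −1.96, but the genes were split. Usp18 was at −3.26, past the median of the type I list, and Isg15 at −3.00 was close to it. Herc6, Ube2l6 and Uba7 were at −1.96, −1.80 and −1.54.

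The genes whose profile was most like each of the 5 were found by Pearson's r of log2(CPM + 1) over the 40 combinations of class and library with at least 50 cells, among 11474 genes with at least 200 UMIs. The points share 4 libraries and their depth, so r is a description. Isg15 was most like Xaf1 (0.960) and Rnf213 (0.958), and Herc6 came next (0.95). Uba7 was most like Dtx3l (0.947), Parp14 and Parp9, genes of mono-ADP-ribosylation and its ubiquitin partner. Ube2l6 was most like Tdrd7 (0.907), Herc6 like Parp9 (0.957) and Usp18 like Adar (0.955), the RNA-editing enzyme, with Herc6 next (0.947). Among the 5, Herc6 and Isg15 (0.95) were most alike and Ube2l6 and Usp18 (0.804) least. Without the IRF3/7 library, over 33 combinations, 2 to 4 of the 5 nearest genes of each remained, and the nearest gene was another for 4 of the 5. Isg15 was then most like Irf7 (0.952), Ube2l6 like Herc6 (0.895), Herc6 like Dtx3l (0.95) and Usp18 like Herc6 (0.934), while Uba7 stayed most like Dtx3l (0.935). Tdrd7 was no longer among the 5 nearest of Ube2l6, nor Herc6 among those of Isg15.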

How the data were processed

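Fixed CD45+ cells were assayed with the Chromium Flex probe kit, with the 4 libraries told apart by probe barcode (4 barcodes, each in 1 library, no full cell barcode shared). Per the study's methods the authors used Cell Ranger (7.1.0 in the submitters' processing notes) with the mm10 (GRCm38) probe set and filtered cells and genes. What the authors deposited is a matrix of UMI counts that were not normalized, for 12584 genes and 34447 cells. Ribosomal and mitochondrial genes had been removed, so the totals exclude them. The UMI sum equalled the deposited total in all 34447 cells. Classes came from the deposited annotation.

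UMIs were summed over the cells of a group and scaled to CPM with exact Poisson 95% intervals. Log2 ratios carry exact conditional 95% intervals. The gap between 2 ratios carries a normal approximation on the log scale, and shares of cells an exact Clopper-Pearson interval (in the tables only). All cover counting error only. A count of 0 was set to 3 UMIs per library, which corresponds to 0.0381 to 0.114 CPM over all cells. Comparisons within a class needed at least 50 cells in both libraries, and medians over all genes at least 20 UMIs. No p-value was computed, since each group had 1 library. Thinning gave the expected share at 2000 UMIs per cell without a random draw. Doublets were not called, and an alternative left out the 5% of cells with the most UMIs. The ratio and interval code was tested on simulated counts. Other alternatives were size factors, cells above 2000 detected genes, a total without the 50 most abundant genes, a mean over cells, equal weight of shared classes (a mean of their CPM or, added after seeing the data, of their log2 ratios), leaving out Infl_Mono, and all cells. Named genes were the 5 members, Irf3, Irf7, the lists, and the 5 genes most like each member. Trim25 and the other list genes were named after their values were seen. The members and lists were chosen with earlier results of these data known. Near-identical gene copies were not checked. Some items of the line's genotype and of the gene lists are not reported here. Promoters came from RefSeq, and no RefSeq promoter entry was used for Usp18. Python 3.11.15, numpy 2.4.6, scipy 1.17.1, pandas 2.3.3 and matplotlib 3.10.9 were used.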

Additional observations from a re-analysis of the deposited data

Results flagged for a closer look

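Some genes differed in opposite directions in 2 classes under 1 comparison, with both counting intervals off 0. The difference between the classes was not tested, since each rests on 1 library per group. Usp18 was lower in COX2i + 5-AZA than in CTRL within Infl_Mono, with a log2 ratio of −0.35 (−0.55 to −0.14), and higher in TAM_cycling at 2.55 (2.30 to 2.81). In Infl_Mono the 7 macrophage markers summed to 51908 CPM in CTRL and 7106 in COX2i + 5-AZA and the 4 neutrophil markers to 304 and 4911 CPM, none at 0, and their part in this ratio was not tested.

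Against COX2i, Usp18 was lower in COX2i + 5-AZA within Infl_Mono (−0.58) and Monocyte_1 (−0.73) and higher in TAM_cycling (1.51). Herc6 was lower within Infl_Mono (−0.41) and Monocyte_1 (−0.24) and higher in TAM_cycling (0.93). Ube2l6 was lower within NK cells (−1.28, −2.14 to −0.33), where COX2i had 50 cells and 15 UMIs of the gene, and higher in TAM_cycling (0.84). In the NK cells the 5 NK markers summed to 4355 CPM in COX2i and 11009 in COX2i + 5-AZA and the 7 macrophage markers to 1960 and 4035 CPM, none at 0, and their part in this ratio was not tested.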

How the results depend on the processing

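No paired analysis was possible because each group had 1 library. The median log2 ratio of the 5 genes in monocytes and macrophages depended most on the class mix, except for COX2i against CTRL, where the mean over cells moved it more. With shared classes weighted equally it was 0.68 for IRF3/7 against CTRL (1 class), 0.37 for COX2i against CTRL, 0.39 for COX2i + 5-AZA against CTRL, 0.04 for COX2i + 5-AZA against COX2i and −0.89 for COX2i + 5-AZA against IRF3/7. Under that weighting the direction turned for Usp18 in COX2i + 5-AZA against CTRL (−0.06) and against COX2i (−0.47) and for Herc6 against COX2i (−0.15). That weighting averages CPM, so the classes with the highest levels weigh most in it. The mean of the log2 ratios within the shared classes, chosen after seeing the data, gave 0.68, 0.61, 0.78, 0.22 and −0.94 in the same order of comparisons, and Usp18 against COX2i turned (−0.02). In the same order, size factors, which move all genes by the median gene (−0.54 to 0.33), gave 4.22, 0.48, 1.89, 1.42 and −2.29. A mean over cells gave 3.65, 0.66, 1.92, 1.26 and −1.73, and all cells 3.58, 0.54, 1.82, 1.29 and −1.75. Leaving out Infl_Mono gave 3.32 for IRF3/7 against CTRL and −1.70 for COX2i + 5-AZA against IRF3/7, and leaving out the cells with most UMIs gave 1.31 for COX2i + 5-AZA against COX2i. Of the 45 values of the medians, 22 stayed within the counting interval and none changed direction. In the single genes the direction held in all settings but the 2 class weightings. Requiring 1 UMI in place of 20, tried in the direction of the 5 genes alone, gave shares of all genes past the threshold of 2.75% to 11.2%. Levels that rest on few UMIs, such as the 3 of Usp18 in CTRL neutrophils, are limited by depth.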
